A study of Mus musculus with 20 samples.

Results

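A set of 5 genes of antigen presentation was followed in mouse prostate: H2-Ea, H2-Eb1, H2-Ob and H2-Q1 of the major histocompatibility complex (MHC), which in the mouse is called H2, and B2m, the partner of its class I chains. The members were all array elements, that is, spots of cDNA, annotated with exactly 1 of these gene symbols. They numbered 8 of 11552 elements: 2 for H2-Ea, 3 for B2m and 1 for each of H2-Eb1, H2-Ob and H2-Q1. All 8 had a value on all 20 arrays and passed the filter on missing values. The question was how the 5 inbred strains differed at these elements, and how those differences lay against the H2 haplotype, the set of linked MHC alleles that a strain carries.

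Prostates came from males aged 8 to 9 weeks of C57BL/6J, 129X1/SvJ, BALB/c, DBA/2 and FVB/NJ, with no treatment and no engineered allele named in the sources used here. Each strain gave 4 pools of 3 mice, 12 mice in all, and every pool joined equal RNA of the dorsal, lateral, ventral and anterior lobes. Amplified RNA of a pool was hybridised on 1 array against a common reference mixed from the RNA of all strains, with the pool in Cy3 on 2 arrays of a strain and in Cy5 on the other 2. The deposited value is the log2 ratio of pool over reference. C57BL/6J and 129X1/SvJ are known to carry haplotype b, BALB/c and DBA/2 haplotype d, and FVB/NJ haplotype q; the mice themselves were not typed here. BALB/c and DBA/2 (substrains BALB/cAnNCrl and DBA/2NCrl) were bought from Charles River and the 3 other strains from Jackson, so that haplotype d and supplier cannot be told apart. Nor can a haplotype be told apart from the rest of a strain's genome, since 2, 2 and 1 strains stand for b, d and q.

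MHC class I molecules consist of a heavy chain, encoded in H2, and the invariant light chain beta-2 microglobulin, encoded by B2m on another chromosome, and they display peptides from inside the cell on nearly all cell types. Class II molecules consist of an alpha and a beta chain and are displayed mainly by dendritic cells, macrophages and B cells; H2-Ea and H2-Eb1 encode the chains of the class II molecule E. H2-Ob encodes the beta chain of the class II-like molecule DO, which restrains peptide loading in B cells. H2-Q1 encodes a heavy chain of the class I family in the Q region. Mice of haplotypes b and q are known to lack the E molecule at the cell surface and to carry a defective H2-Ea gene. The gene table of the reference, an assembly of C57BL/6J, lists H2-Ea as a transcribed pseudogene.

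Class II genes carry a short conserved stretch before their start, with an X box and a Y box that are bound by RFX and NF-Y, whereas class I genes and B2m also carry an interferon response element. RefSeq promoters of GRCm38.p6, 250 bases before to 50 after the start, were matched for 3 of the 5 genes and are shown to set the class II gene that differed between strains (H2-Eb1) beside the one that did not pass a test (H2-Ob) and beside B2m. Capitals mark matches, on either strand, to CTAGCAAC (X box core), GATTGG (Y box core) and, for the interferon element, GAAA followed after any 2 bases by GAAA, letters that were picked after the sequences had been seen. All 3 run on the + strand.
H2-Eb1, chr17:34305617-34305916: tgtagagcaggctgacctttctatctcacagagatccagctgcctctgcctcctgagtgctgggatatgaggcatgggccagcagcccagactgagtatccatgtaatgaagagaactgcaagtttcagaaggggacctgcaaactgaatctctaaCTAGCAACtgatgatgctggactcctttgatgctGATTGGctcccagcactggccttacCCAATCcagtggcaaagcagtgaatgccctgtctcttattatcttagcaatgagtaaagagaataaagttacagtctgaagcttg
H2-Ob, chr17:34238655-34238954: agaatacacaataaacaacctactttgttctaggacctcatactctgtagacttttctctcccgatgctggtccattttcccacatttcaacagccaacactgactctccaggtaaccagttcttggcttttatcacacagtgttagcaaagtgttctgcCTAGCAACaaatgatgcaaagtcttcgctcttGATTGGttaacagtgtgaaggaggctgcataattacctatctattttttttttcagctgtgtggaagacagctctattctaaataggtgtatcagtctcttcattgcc
B2m, chr2:122147437-122147736: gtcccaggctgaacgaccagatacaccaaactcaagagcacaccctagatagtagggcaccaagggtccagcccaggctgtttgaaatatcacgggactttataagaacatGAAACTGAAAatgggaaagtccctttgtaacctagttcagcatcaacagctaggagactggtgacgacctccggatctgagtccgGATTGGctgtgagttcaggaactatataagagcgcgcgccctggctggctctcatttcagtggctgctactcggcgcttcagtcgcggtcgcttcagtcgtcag
The X box core began at base 157 of the window in H2-Eb1 and at base 161 in H2-Ob, and was held by 1.32% of 32851 promoters. The Y box core began at base 191 in H2-Eb1, with a match to the opposite strand at base 216, at base 193 in H2-Ob and at base 197 in B2m, and was held by 16.1% of promoters. The interferon element began at base 112 of the B2m window and was held by 3.44%. The motifs share no bases with each other here. A match to letters is not a measured binding site, and these letters are those of C57BL/6J alone.

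Over the 5 strains, 6 of the 8 elements, of 4 of the 5 genes, passed the F test of limma (adjusted p of at most 0.1, Benjamini-Hochberg over 11159 elements), where 11.3% of all elements tested passed. Both H2-Ea elements, H2-Eb1, H2-Q1 and 2 of 3 B2m elements passed; H2-Ob and the third B2m element did not. The strains that stood apart differed from gene to gene: H2-Ea was high in BALB/c and DBA/2, H2-Q1 was low in them, H2-Eb1 was low in FVB/NJ, and B2m was low in C57BL/6J. The 4 elements of H2-Ea, H2-Eb1 and H2-Q1 passed the test between haplotypes and not the test within them, whereas the B2m elements that passed did so in both.

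**Figure D1:**
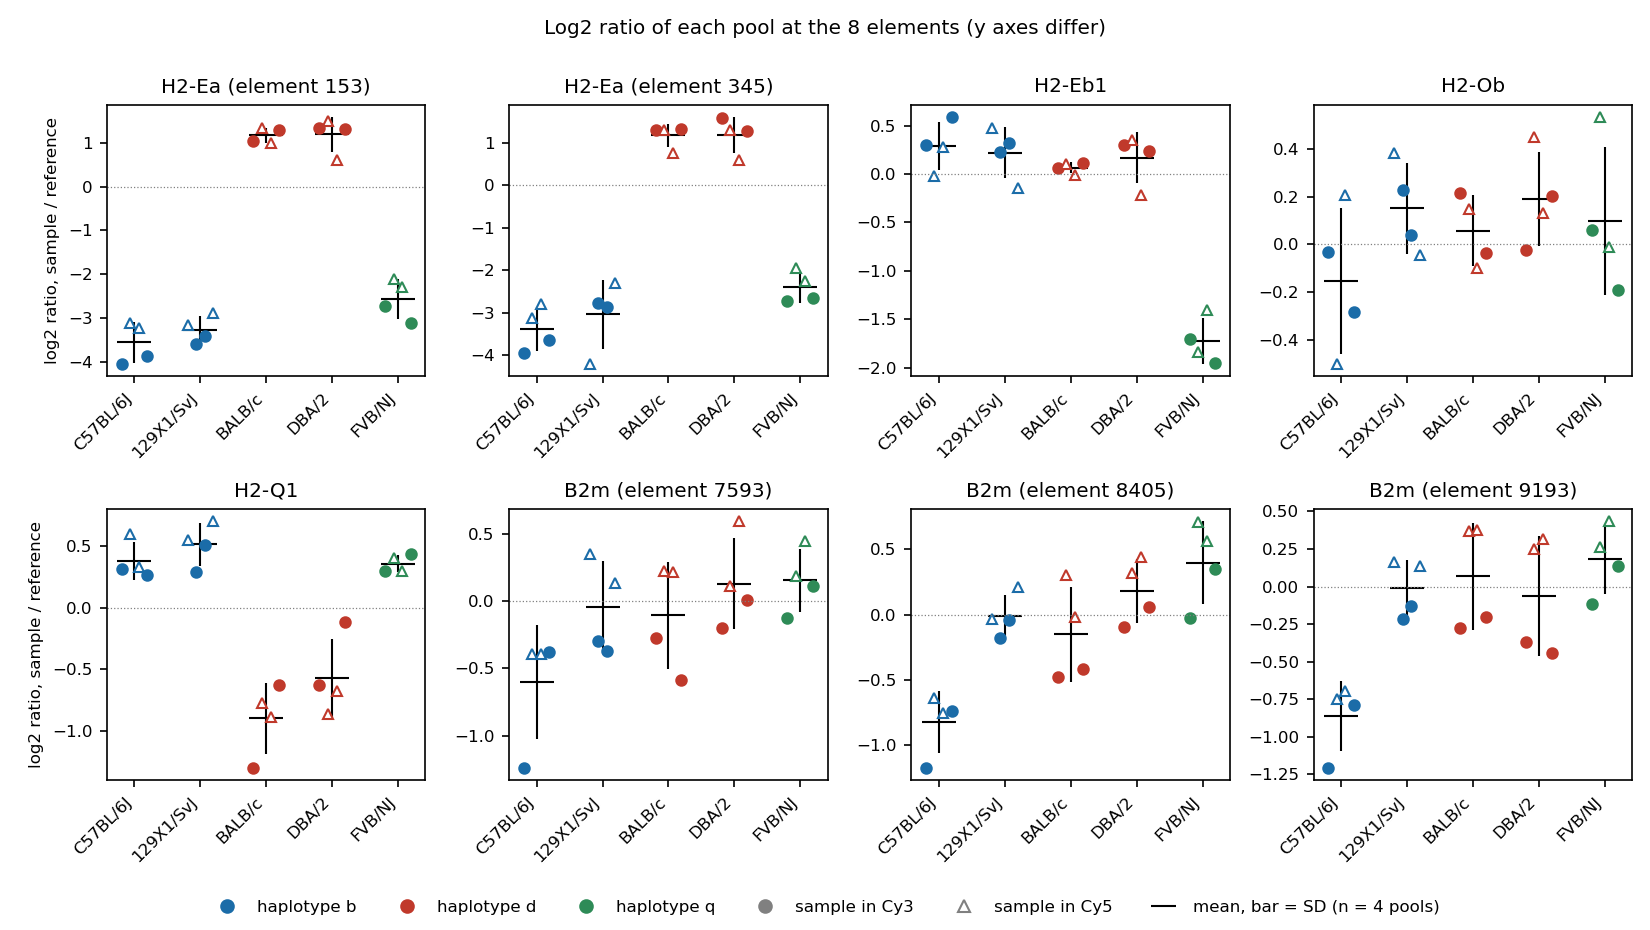
Log2 ratio of pool over reference (y axis, scales differ) for each of 4 pools of 5 strains (x axis) at the 8 elements; colour gives the H2 haplotype, circles and triangles the dye of the pool, horizontal marks the mean and vertical bars the SD. H2-Ea lies at 0.59 or above in the 8 pools of BALB/c and DBA/2 and at -1.96 or below in the 12 others, H2-Eb1 is at -1.40 or below in FVB/NJ alone, and C57BL/6J is lowest for B2m.

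H2-Ea, the alpha chain of the E molecule, separated haplotype d from b and q. At the first of its elements (153) the BALB/c pools 1 to 4 read log2 ratios of 1.04, 1.34, 1.01 and 1.30, and the DBA/2 pools 1.35, 1.5, 0.60 and 1.31. In haplotype b the C57BL/6J pools read -4.05, -3.11, -3.22 and -3.86, and the 129X1/SvJ pools -3.17, -3.61, -3.42 and -2.89. The FVB/NJ pools read -2.73, -2.12, -2.30 and -3.12. All 8 pools of haplotype d thus lay above all 12 others, a full separation that 0.134% of all elements tested showed.

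Strain means at this element were 1.17 ± 0.17 (SD, n = 4) in BALB/c, 1.19 ± 0.40 in DBA/2, -2.57 ± 0.45 in FVB/NJ, -3.27 ± 0.31 in 129X1/SvJ and -3.56 ± 0.46 in C57BL/6J. The d strains stood 4.31 log2 units above the mean of the other 3 strains (SE 0.16, 19.9-fold, adjusted p = 9.83e-13 from limma). Of 11159 elements H2-Ea ranked 2 in the test between haplotypes (adjusted p = 2.21e-12 from limma), and the test within haplotypes gave an adjusted p of 0.778. BALB/c and DBA/2 differed by -0.02 with a 95% interval from -0.41 to 0.37, and C57BL/6J and 129X1/SvJ by -0.29 with an interval from -0.84 to 0.26. Between haplotypes b and q, the difference of C57BL/6J from FVB/NJ was -0.99 (interval -1.55 to -0.43) and did not pass (adjusted p = 0.0707 from limma). The difference of 129X1/SvJ from FVB/NJ was -0.70 (interval -1.25 to -0.16, adjusted p = 0.386 from limma). The order of the b and q strains depended on the scaling. With arrays scaled to 1 spread the second difference turned to 0.53, and with quantile normalization both turned, none past the test. The means under quantile normalization were -3.62 in C57BL/6J, -2.07 in 129X1/SvJ and -4.15 in FVB/NJ, then the lowest strain. The second element turned the same way.

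The second H2-Ea element (345) is annotated with the same clone sequence and is therefore a repeated measurement rather than an independent one; the elements correlated at 0.985 over the 20 arrays. Its d pools ran from 0.59 to 1.58, its b pools from -4.21 to -2.31 and its q pools from -2.74 to -1.96. The order of haplotypes was the same, with the d strains 4.12 above the others (SE 0.21, 17.4-fold, adjusted p = 1.16e-10 from limma). The spread was widest in 129X1/SvJ, at -3.04 ± 0.81 (SD, n = 4), where pool 1 read -4.21. On the 10 arrays with the pool in Cy3 the d strains stood 4.71 above the others at the first element and 4.47 at the second, and on the 10 with Cy5 3.91 and 3.77, each past the test. On the Cy3 arrays alone the second element also passed within haplotypes (adjusted p = 0.0240 from limma).

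The reference held RNA of every strain in equal parts, which sets the scale of the ratio. A transcript present at 1 level in 2 of 5 strains and absent from the other 3 would read a log2 ratio of 1.32 in those 2, and H2-Ea read 1.17 and 1.19. On the linear scale the ratios of the 5 strains averaged 0.979 at the first element and 0.986 at the second, where the 5th and 95th percentiles of all elements were 0.947 and 1.06. Haplotype d accounted for 92.7% of the ratios summed over strains at the first element and 91.8% at the second, C57BL/6J for 1.73% and 1.94%, 129X1/SvJ for 2.12% and 2.47%, and FVB/NJ for 3.45% and 3.83%. A ratio this low may rest on signal close to the background of the spot, and spot intensities are not used here, so that the values do not tell a low level of transcript from none. How well each strain's allele matches the spotted cDNA was not tested and cannot be told apart from the amount of transcript.

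**Figure D2:**
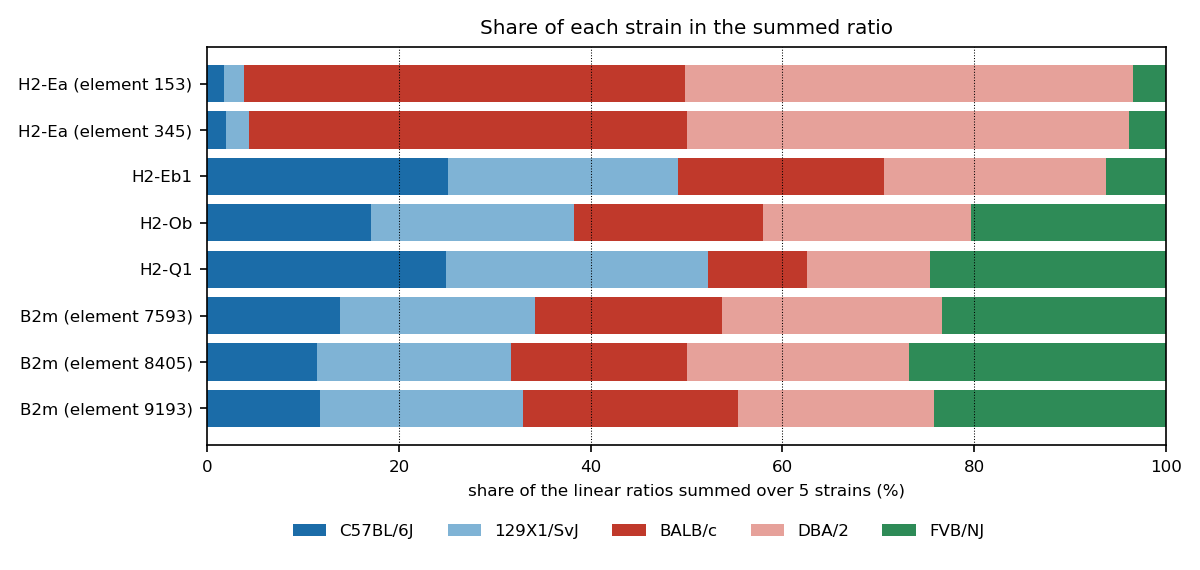
Share of each strain (x axis, percent) in the linear pool-over-reference ratios of strain means, summed over the 5 strains, for the 8 elements; dotted lines stand at equal shares. BALB/c and DBA/2 together hold 92.7% and 91.8% at the H2-Ea elements, whereas FVB/NJ holds 6.25% at H2-Eb1.

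H2-Eb1, the beta chain of the same molecule, set a single strain apart. The FVB/NJ pools read -1.70, -1.84, -1.40 and -1.95. The b pools read 0.29, -0.02, 0.28 and 0.59 in C57BL/6J and 0.47, 0.23, 0.32 and -0.14 in 129X1/SvJ, whereas BALB/c gave 0.06, 0.10, -0.01 and 0.11 and DBA/2 gave 0.30, 0.35, -0.22 and 0.23. Every FVB/NJ pool lay below every other pool, which held for 0.43% of all elements tested, and the other 4 strains overlapped.

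FVB/NJ averaged -1.72 ± 0.24 (SD, n = 4) against 0.18 for the mean of the 4 other strains, whose means ran from 0.06 to 0.29. The difference was -1.91 (SE 0.13, 3.75-fold lower, adjusted p = 1.09e-08 from limma), and FVB/NJ held 6.25% of the summed ratio. Each of the 4 pairs with FVB/NJ passed, with differences between 1.79 and 2.01, and none of the 6 pairs among the other strains did. C57BL/6J differed from BALB/c by 0.22 (95% interval -0.06 to 0.50) and from DBA/2 by 0.12 (interval -0.23 to 0.46). The b strains, which differed from both d strains in H2-Ea, thus showed no called difference from them in H2-Eb1. The d strains also passed against b and q together (0.52, adjusted p = 0.00518 from limma), a contrast that holds the low FVB/NJ value on 1 side; on Cy5 arrays alone it was 0.50 and did not pass. The chains of the E molecule correlated at 0.189, a description of 5 strains and not of independent points.

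H2-Ob, the beta chain of DO, passed no test. Its pools ran from -0.50 to 0.21 in C57BL/6J, from -0.04 to 0.38 in 129X1/SvJ, from -0.10 to 0.21 in BALB/c, from -0.03 to 0.45 in DBA/2 and from -0.19 to 0.53 in FVB/NJ. All strains overlapped. Strain means spanned 0.34 log2 units, close to the median span of 0.32 over all elements, and the adjusted p from limma was 0.627 over strains, 0.892 between and 0.467 within haplotypes. The d strains differed from the others by 0.09 with a 95% interval from -0.13 to 0.31, so that a difference of the size seen for H2-Q1 or H2-Ea lay outside it.

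H2-Q1, a class I heavy chain gene, was low where H2-Ea was high. The BALB/c pools read -1.30, -0.78, -0.89 and -0.63 and the DBA/2 pools -0.63, -0.86, -0.68 and -0.12. The C57BL/6J pools read 0.32, 0.60, 0.33 and 0.27, the 129X1/SvJ pools 0.55, 0.29, 0.51 and 0.71, and the FVB/NJ pools 0.30, 0.41, 0.30 and 0.43. All 8 pools of haplotype d lay below the 12 others, which held for 0.0627% of all elements tested.

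Strain means were -0.90 ± 0.29 (SD, n = 4) in BALB/c and -0.57 ± 0.32 in DBA/2, against 0.38 ± 0.15 in C57BL/6J, 0.52 ± 0.17 in 129X1/SvJ and 0.36 ± 0.07 in FVB/NJ. The d strains lay below the rest by a difference of -1.15 (SE 0.10, 2.23-fold, adjusted p = 3.45e-07 from limma). This held in both dyes, at -1.02 on Cy3 and -1.29 on Cy5 arrays. Strains of 1 haplotype did not pass the test against each other (adjusted p = 0.367 from limma), and BALB/c differed from DBA/2 by -0.33 with a 95% interval from -0.72 to 0.06. C57BL/6J differed from FVB/NJ by 0.02, with an interval from -0.22 to 0.26. Class I genes of the Q region resemble each other in sequence, so the element may report more than 1 of them. Cross-hybridisation was not tested.

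B2m, the light chain of class I molecules, was measured at 3 elements with different annotated clone sequences. At element 8405 the C57BL/6J pools read -1.17, -0.64, -0.75 and -0.73. The 129X1/SvJ pools, of the same haplotype, read -0.03, -0.18, -0.04 and 0.21. The BALB/c pools read -0.47, 0.30, -0.01 and -0.41, the DBA/2 pools -0.09, 0.32, 0.44 and 0.06, and the FVB/NJ pools -0.03, 0.71, 0.56 and 0.35. Every C57BL/6J pool lay below the 16 others at this element and at element 9193, where 0.358% of all elements did so. At element 9193 the C57BL/6J pools ran from -1.20 to -0.69 and those of the other strains from -0.44 to 0.44. At element 7593 the C57BL/6J pools, from -1.24 to -0.38, overlapped those of BALB/c, from -0.59 to 0.23.

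C57BL/6J averaged -0.82 ± 0.24 (SD, n = 4) at element 8405 and lay -0.93 from the mean of the other strains (SE 0.15, 1.90-fold lower, adjusted p = 5.18e-04 from limma). At element 9193 the difference was -0.90 (SE 0.16, 1.87-fold lower, adjusted p = 0.00133 from limma). At element 7593 it was -0.63 (SE 0.18), which did not pass (adjusted p = 0.0695 from limma). The elements correlated at 0.864 to 0.901 with each other over 20 arrays. FVB/NJ was the highest strain at all 3 and passed against the others at element 8405 alone (0.60, adjusted p = 0.0297 from limma); this call was lost without FVB/NJ pool 2 (0.50), pool 3 (0.54) or pool 4 (0.62), with weighted arrays (0.51), with the 3 elements averaged (0.44) and on Cy3 (0.54) or Cy5 arrays (0.66) alone.

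B2m also differed between strains of 1 haplotype. The test within haplotypes passed at its elements 8405 and 9193 (adjusted p = 0.0158 and 0.0286 from limma), the only 2 of 8 elements to do so, where 9.47% of all elements passed. C57BL/6J lay -0.81 from 129X1/SvJ at element 8405 and -0.85 at element 9193 (adjusted p = 0.0421 and 0.0383 from limma on 8 arrays); without any 1 of those 8 pools neither passed, with differences from -0.93 to -0.70 and from -0.99 to -0.73 over the alternatives, nor did their mean with the third element (-0.74, adjusted p = 0.0979 from limma) or either on arrays of 1 dye. Between C57BL/6J and FVB/NJ the difference was -1.22 and -1.04 at these 2 elements, both past the test. At element 7593 it was -0.75 and did not pass (adjusted p = 0.0811 from limma). B2m also moved with the dye: pools in Cy5 read higher than pools in Cy3 by 0.38 to 0.48 at the 3 elements, all 3 past the test, and no other of the 8 elements was, against 15.9% of all elements. The dye is balanced in each strain, and at element 8405 C57BL/6J passed against the others within each dye, at -0.85 on Cy3 and -1.01 on Cy5 arrays.

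Set side by side as haplotypes, 6 of 8 elements passed the F test between haplotypes, where 5.65% of all elements passed: both H2-Ea elements, H2-Eb1 and H2-Q1 (adjusted p from 2.21e-12 to 7.24e-07 in limma) and B2m elements 8405 and 9193 (adjusted p = 0.00871 and 0.0589). At element 9193 it no longer passed without C57BL/6J pool 1, 129X1/SvJ pool 2 or FVB/NJ pools 2, 3 or 4 (adjusted p of up to 0.138 from limma). The d strains passed against b and q at 4 elements (background 2.45%), 3 of them higher (background 1.25%) and H2-Q1 lower (background 1.2%). The b strains passed against d and q at 6 elements (background 2.31%): both H2-Ea elements and B2m elements 8405 and 9193 lower (background 1.03%), and H2-Eb1 and H2-Q1 higher (background 1.28%). In B2m the low value was that of C57BL/6J, since 129X1/SvJ, also of haplotype b, averaged -0.01 at both elements. For H2-Eb1 the low FVB/NJ value (-1.72) stood on the other side in both contrasts, and no pair of a b and a d strain passed. The B2m call at element 9193 (-0.50, adjusted p = 0.0415 from limma) was lost without any 1 of 13 pools, of all 5 strains. These contrasts share arrays and are not independent of each other. Against the mean of the 4 other strains, C57BL/6J passed at 6 elements (background 3.22%), 129X1/SvJ at 4 (5.7%), BALB/c at 3 (2.03%), DBA/2 at 3 (1.96%) and FVB/NJ at 5 (2.55%). Among these, the call of H2-Q1 in FVB/NJ (0.50) was lost without any 1 of its 4 pools (0.48 to 0.52) and that in C57BL/6J (0.53) without pool 1 (0.55) or 2 (0.45), and the call of H2-Eb1 in C57BL/6J (0.60) without pool 4 (0.50). That of H2-Eb1 in 129X1/SvJ (0.52) was kept under 27 of 32 alternatives. With 1 pool left out its adjusted p reached 0.0584 in limma. Calls against the 4 other strains also depend on which strains those are. The H2-Eb1 calls of C57BL/6J and 129X1/SvJ hold the low FVB/NJ value on the other side. Those of FVB/NJ at H2-Ea and H2-Q1 hold the d strains there, and no pair of FVB/NJ with a b strain passed at either gene.

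**Figure D3:**
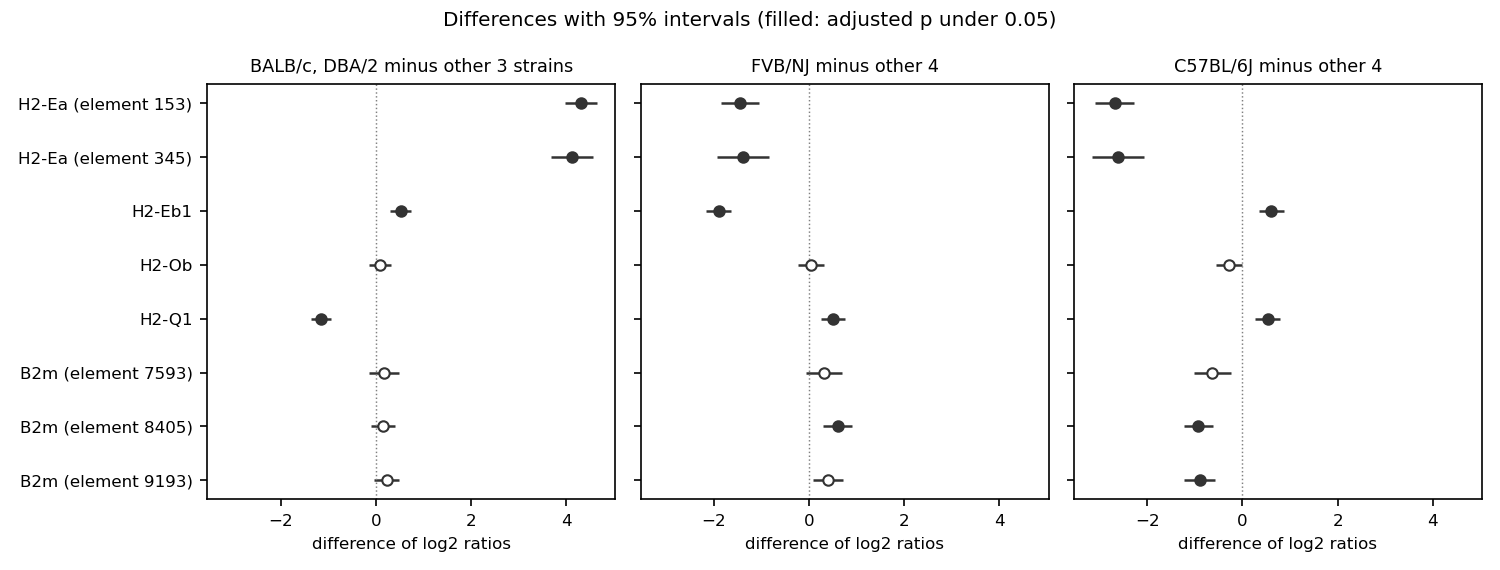
Difference of log2 ratios (x axis) with 95% intervals for the 8 elements (y axis) in 3 contrasts, filled where the adjusted p from limma was under 0.05. The largest shift is that of H2-Ea toward BALB/c and DBA/2 (4.31 and 4.12), H2-Q1 goes the other way (-1.15), H2-Eb1 is lowest for FVB/NJ (-1.91) and B2m for C57BL/6J (-0.93 to -0.63).

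Of the 80 combinations of 8 elements and 10 pairs of strains, 28 passed at an adjusted p under 0.05 in limma. BALB/c and DBA/2, both of haplotype d, differed at 0 of 8 elements, where 3.42% of all elements passed and 0 of the 8 had an unadjusted p under 0.05. C57BL/6J and 129X1/SvJ, both of haplotype b, differed at 2, both of B2m, against 1.3% of all elements. C57BL/6J differed from BALB/c and from DBA/2 at 4 elements each (background 2.79% and 2.99%) and from FVB/NJ at 3 (3.13%). The B2m elements disagreed in the pairs with the d strains. Against BALB/c only element 9193 passed (8405 at adjusted p = 0.0930 in limma), and against DBA/2 only element 8405 (9193 at adjusted p = 0.0534 in limma). 129X1/SvJ differed from BALB/c and from DBA/2 at 3 elements each (background 0.887% and 1.21%) and from FVB/NJ at 1, H2-Eb1 (0.78%). FVB/NJ differed from BALB/c and from DBA/2 at 4 elements each, the 2 of H2-Ea, H2-Eb1 and H2-Q1 (background 2.41% and 3.73%).

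Likeness was measured by the Pearson correlation of log2 ratios over the 20 arrays with 5819 other named genes. The gene most like H2-Ea was Glo1, which encodes glyoxalase I and, like H2-Ea, lies on chromosome 17. It correlated at 0.943, and its second element at 0.843. Its strain means were -0.72 in C57BL/6J, -0.37 in 129X1/SvJ, 0.48 in BALB/c, 0.50 in DBA/2 and -0.23 in FVB/NJ, and the d strains stood 0.93 above the others (SE 0.08, adjusted p = 1.37e-07 from limma). Next came Ccl8, a chemokine gene on chromosome 11 (0.844, and 0.685 at its other element), and AI413908 (0.824). The gene most like H2-Q1 was Cbs, which encodes cystathionine beta-synthase, also on chromosome 17, at 0.903; its d strains lay -1.09 from the others (SE 0.09, adjusted p = 8.60e-08 from limma). Glo1 and Cbs lie outside the stretch from Kifc1 to Mog that was taken here as the MHC region.

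**Figure D4:**
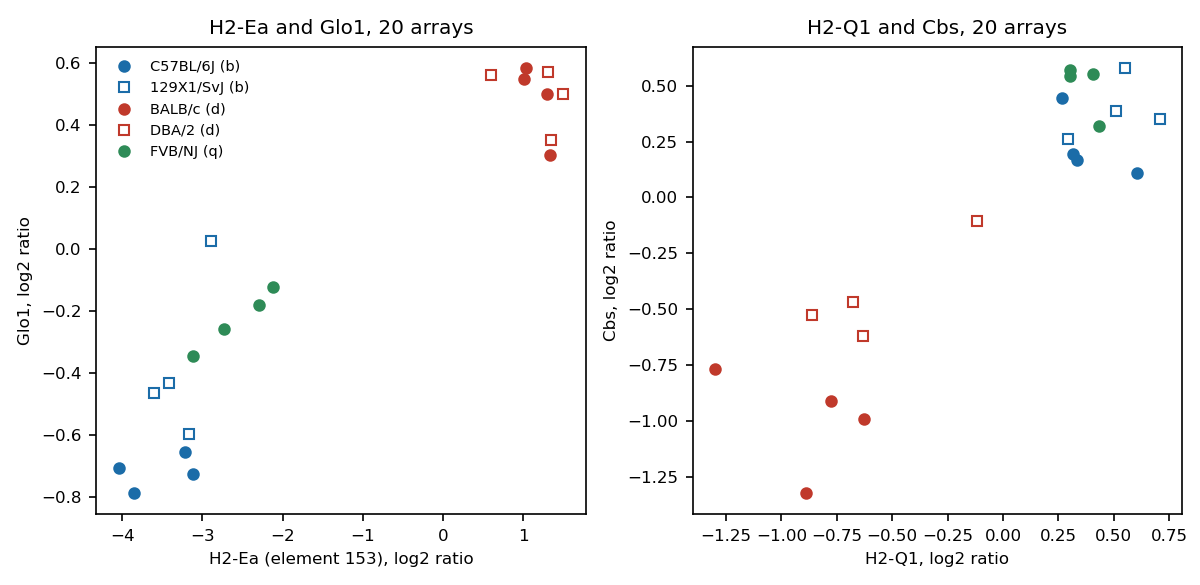
Log2 ratio of H2-Ea against Glo1 (left) and of H2-Q1 against Cbs (right) on 20 arrays, 1 point per pool, coloured by H2 haplotype. The pools of haplotype d form a cluster of their own in both panels, so the correlations of 0.943 and 0.903 describe the step between clusters.

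None of these correlations carries a test. Those of H2-Ea, H2-Eb1 and H2-Q1 describe steps between strains. H2-Ob and B2m element 7593 did not pass the test over strains (adjusted p = 0.627 and 0.182 from limma), so theirs cannot be read in this way. Element 7593 also moved with the dye (0.48), which was not removed before correlating. H2-Eb1 was most like Sec22b (0.934), Dcaf17 (0.928) and Slc25a17 (0.920), on chromosomes 3, 2 and 15; the other elements of Sec22b correlated at -0.162 and -0.616 with it, and the other element of Slc25a17 at 0.882. H2-Q1 was next most like Aldh1a1 (0.780) and Bzw2 (0.778, but 0.326 at its other element). H2-Ob reached 0.696 with Bcl2l12, 0.688 with Colgalt2 and 0.680 with Igsf8. B2m, by element 7593, reached 0.785 with Dab1 (0.267 and 0.102 at its other elements), 0.716 with Hyal1 and 0.709 with Atp6ap2, none of which passed the test over strains.

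With the values in view, all named genes were counted for a full separation of the 8 pools of haplotype d from the 12 others. It was seen in 12 of 5820 named genes (0.206%). Of the 240 on chromosome 17 it was seen in 5 (2.08%), H2-Ea, H2-Q1, Cbs, Glo1 and Enpp5, and of the 5475 on other chromosomes in 6 (0.11%). H2-Ea had the largest difference of the 12, ahead of Spink8 on chromosome 9 (2.45). This count was made after the values had been seen and is a description. Any difference between suppliers would separate the same pools.

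The other genes of antigen processing showed no called difference between strains. Of 54 listed genes 14 were measured, from cathepsins and proteasome subunits to chaperones of the class I loading complex, and 0 passed the F test of limma; 1 had an unadjusted p under 0.05. The lowest were Ctsl, the lysosomal protease cathepsin L (adjusted p = 0.215 from limma), and Ctsb, cathepsin B (adjusted p = 0.333 from limma). Their strain means spanned 0.32 log2 units in the median, against 0.33 for all named genes, of which 12.5% passed. The companions that would bear most directly on the members, such as the class II genes H2-Aa, H2-Ab1 and Cd74 and the class I genes H2-K1 and H2-D1, had no element annotated with their symbol alone and are not analysed here.

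Of 36 measured genes inside the MHC region other than the members, of which Tapbp, Psmb8 and Psmb9 are also among those of antigen processing, 4 passed over strains and 2 between haplotypes. Ier3, a stress-induced survival gene, was highest in 129X1/SvJ (0.70) and lowest in BALB/c (-0.43; adjusted p = 8.39e-05 from limma). D17H6S56E-5 was lowest in FVB/NJ (-0.99), where the other strains ran from -0.13 to 0.25 (adjusted p = 9.15e-05 from limma). Tubb5, a beta tubulin, ran from -0.74 in 129X1/SvJ to 0.53 in C57BL/6J (adjusted p = 0.00114 from limma), and C2, a complement component, from -0.38 in C57BL/6J to 0.16 in FVB/NJ (adjusted p = 0.0734 from limma). Ier3 and D17H6S56E-5 were the 2 that passed between haplotypes, where 6.07% of all named genes did. The share called, 11.1%, was close to the 12.5% of all named genes, and the median span was 0.35.

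**Figure D5:**
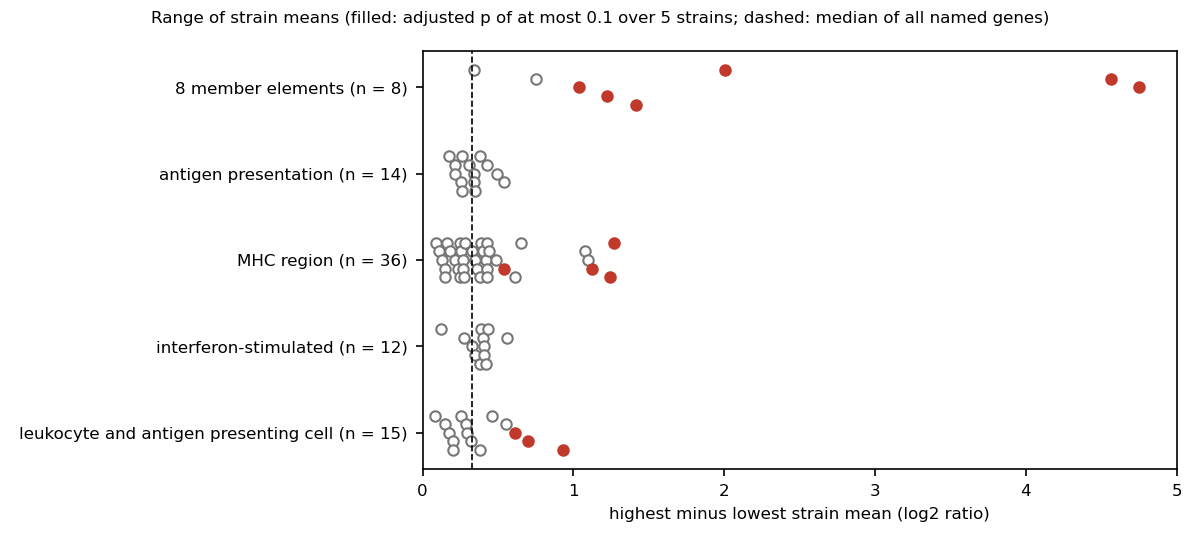
Highest minus lowest strain mean (x axis, log2 ratio) of the 8 elements and of the measured genes of 4 lists, filled where the adjusted p over 5 strains was at most 0.1, with the median of all named genes (0.33) dashed. The H2-Ea elements lie at 4.75 and 4.57 and H2-Eb1 at 2.01, whereas the 14 genes of antigen presentation stay at or below 0.54.

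Interferon-stimulated genes, which often rise together with MHC genes, gave 0 calls among 12 of 36 measured. Over strains 12.5% of all named genes passed, so that 0 of 12 decides nothing about this list. Of the 12, 2 had an unadjusted p under 0.05, Usp18 (adjusted p = 0.140 from limma) and Stat2 (adjusted p = 0.171 from limma). Markers of leukocytes and antigen presenting cells were measured for 15 of 39 genes. Of these, 3 passed over strains (20%) and 0 between haplotypes, where 12.5% and 6.07% of all named genes passed. Mpeg1, of macrophages, ran from -0.22 in 129X1/SvJ to 0.40 in C57BL/6J, Cd52, of lymphocytes, from -0.51 in C57BL/6J to 0.19 in DBA/2, and Lyz2, of myeloid cells, from -0.34 in FVB/NJ to 0.59 in BALB/c. The B cell markers Ms4a1 and Cd79b did not pass (adjusted p = 0.633 and 0.349 from limma). The mean of the 15 markers in a pool ran from -0.13 to 0.06 in C57BL/6J, from -0.27 to 0.10 in 129X1/SvJ, from 0.01 to 0.06 in BALB/c, from -0.10 to 0.10 in DBA/2 and from -0.07 to 0.03 in FVB/NJ, so that all strains overlapped. In bulk tissue fewer cells of a type and less RNA per cell cannot be told apart.

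Ratios to a prostate reference give no absolute level, so that the tissue label cannot be checked by the height of its markers; 8 of 16 markers of prostate epithelium were measured, and their mean in a pool ran from -0.34 to 0.18. Over strains 2 of the 8 passed (25%, against 12.5% of all named genes), named here after their values were seen. Epcam, an epithelial adhesion gene, ran from -0.46 in C57BL/6J, the strain low in B2m, to 0.41 in 129X1/SvJ. Sbp, which encodes spermine binding protein, went the other way, from -0.94 in 129X1/SvJ to 0.77 in C57BL/6J. C57BL/6J lay -0.50 from the other strains in Epcam (adjusted p = 1.73e-04 from limma) and 1.28 in Sbp (adjusted p = 5.54e-05 from limma). The part of these 2 genes in the B2m result was not tested. Genes of the seminal vesicle, which adjoins the prostate, varied widely. The mean of 6 of them ran from 0.57 to 1.42 in BALB/c pools, from -3.07 to -2.40 in DBA/2 and from -3.56 to -0.04 in the other strains. Over strains 3 of 6 (Pate4, Svs5 and Svs2) passed, against 12.5% of all named genes. The part of these genes in the results was not tested. Between BALB/c and DBA/2, the strains with the highest and lowest mean of that list, 0 of the 8 elements were called. As 3.42% of all elements were called in this pair, 0 of 8 decides nothing about that part. On the arrays, 10998 to 11251 elements held a value, medians lay between -0.01 and 0.02, and the highest correlation of 2 arrays was 0.732. Arrays of the same strain correlated at a median of 0.461 in the same dye and 0.235 in opposite dyes.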

How the data were processed

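Prostate RNA of 5 strains was measured on 20 cDNA arrays with 2 colours. The authors scanned the arrays, subtracted the local background, set weak spots to missing and corrected each array with loess fits per print tip. The values they deposited are log2 ratios of sample over reference. Arrays of 1 strain in opposite dyes correlated at a median of 0.235, so that both dye orientations carry the same sign. This cannot show which of sample and reference is on top, since a sign turned on every array would give the same correlation. The study later removed spots of low abundance; that step needs intensities and was not applied here. Precision is limited by the number of arrays.

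An element was tested if it lacked no more than 3 values and had 2 or more in every strain (11159; 393 left out). Tests ran in limma 3.58.1 (R 4.3.3), in place of the SAM of the study, which was not run. F tests ran over all 20 arrays with calls at adjusted p up to 0.1, pairs over their own 8 arrays and contrasts over all 20, both with calls under 0.05, with Benjamini-Hochberg over all elements. Intervals are at 95%. The tests were tested on simulated data. Gene symbols came from the array annotation; chromosomes and order came from GRCm38.p6, where H2-Ea was matched by symbol. Groups, dyes and pool numbers came from the labels. The rule named every member element, genes past the F test in the lists of antigen presentation, MHC region, interferon and leukocytes (or the 2 with the lowest p), and the 3 genes most like each member, each gene standing by its most complete element. A gene with several elements counted once in a list. Members and lists were chosen with earlier results of these data known. Alternatives were other filters, centring, scaling, quantile normalization, a dye term, the pool number as a block, robust and weighted fits, elements averaged by gene, arrays of 1 dye, and leaving out 129X1/SvJ or each pool.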

Additional observations from a re-analysis of the deposited data

Results flagged for a closer look

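A pool counts as apart in a strain when its gap to the nearest of the 3 others, as a share of the strain's range, exceeds Dixon's 95% critical value. Of 40 combinations of element and strain, 2 did so, where chance alone gives about 1 in 20. At H2-Ea element 345, BALB/c pool 3 read 0.77, below 1.29 to 1.32 in the other pools (gap 0.944 of the range); at the repeated spot, element 153, the same pool read 1.01 within a strain range from 1.01 to 1.34. At B2m element 7593, C57BL/6J pool 1 read -1.24, below -0.40 to -0.38 in the others (gap 0.984 of the range), and this pool was also the lowest at elements 8405 (-1.17) and 9193 (-1.20).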

How the results depend on the processing

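Over 33 alternatives, no direction of a called difference reversed; the order of b and q strains in H2-Ea, which was not called, did. Apart from single pools, 1026 comparisons of an element under an alternative kept their outcome, 58 lost a call and 10 gained one. With 1 pool left out, 1606 kept their outcome and 54 lost a call. Most of the losses were in B2m (68 of both kinds) and H2-Q1 (26). For the F tests a kept outcome includes tests passed in neither fit, among them all 99 comparisons of H2-Ob, so the kept outcomes are not all kept calls. The d contrast of H2-Ea stayed past the test under all 33, from 3.91 to 4.79 at element 153 and from 3.77 to 4.56 at element 345, as did that of H2-Q1 (-1.39 to -1.02) and the FVB/NJ contrast of H2-Eb1 (-2.37 to -1.72). With the pool number as a replicate block, 6, 6 and 2 elements passed over strains, between and within haplotypes, 4 and 6 passed for d and b, 21 in the strain contrasts and 33 in pairs. The labels name nothing that pools of 1 number share, and not every same-numbered pair of pools correlated: the median was 0.213 (22 of 40 above 0.1), against -0.05 for other numbers (44 of 120); 11 of 20 arrays, or 13 with the dye removed, were closest to their own number, a hint of pairing from the data alone. In the block, both B2m calls between C57BL/6J and 129X1/SvJ were lost (adjusted p = 0.180 and 0.219 in limma).

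Element counts that moved by over 1.5 times were these. The test within haplotypes called 1 element with weighted arrays, 1 with genes averaged, 1 on Cy5 arrays and 0 without 129X1/SvJ, where it compares BALB/c with DBA/2 alone. Pairs called 18 with genes averaged (5 genes in place of 8 elements) and 18 on Cy3 arrays. The b contrast called 3 on Cy3 arrays, and the strain contrasts 13 on Cy5 arrays. In lists, Cy5 arrays left 0 MHC region genes and 4 cell type markers past the test, in place of 4 and 8; a dye term gave 7 MHC region and 2 interferon-stimulated genes; and 1 interferon-stimulated gene passed in place of 0 with scaling, quantile normalization, weighted arrays, genes averaged or no 129X1/SvJ. The cause was not tested, except that single-dye fits hold 10 arrays. With 1 pool left out, calls ran from 6 to 6 over strains, 5 to 6 between and 1 to 2 within haplotypes, 4 to 4 for d, 5 to 6 for b, 19 to 22 in strain contrasts, 25 to 29 in pairs and 3 to 4 for the dye. Over lists they ran from 0 to 1 for antigen presentation, 3 to 7 for the MHC region (7 without 129X1/SvJ pool 4), 0 to 2 for interferon and 6 to 12 for cell type markers. The within-haplotype call of B2m element 9193 was lost without C57BL/6J pool 1 (adjusted p = 0.103 in limma).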
